A study of Mus musculus with 3 samples.

Results

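A set of 10 genes that encode ubiquitin ligases, their partners and lipid kinases known to restrain T cell activation was followed in mouse cells labelled T-helper 1. The genes were chosen by name, with earlier results of these data known. All 10 of 10 were found among the 50600 annotated genes of the count tables: Cbl, Cblb, Rnf128, Peli1, Itch, Ndfip1, Dgka, Dgkz, Ubash3a and Ubash3b. The labels name total RNA while a linked protocol names PolyA, so how the RNA was selected is not settled here. RNA-seq had been made from C57BL/6NJ primary cells in a single group, Th1, with 3 libraries numbered as biological replicates 1, 2 and 3. These came from separate biosamples under a shared donor identifier, with age unknown and sex not collected, so the spread between them may be partly technical. No treatment was named in the labels, and the table headers carry a time of 0 hours. There was no second condition, so levels were compared between genes within a library and between the 3 libraries.

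T cell receptor signals are limited by several kinds of enzyme. Ubiquitin ligases such as c-Cbl, Cbl-b, GRAIL and Itch tag receptor chains and signalling proteins for removal or altered function, and several of them are known for their part in T cell anergy, the unresponsive state that follows a receptor signal without costimulation. Diacylglycerol kinases act on the lipid side: they convert diacylglycerol, which activates RasGRP1 and protein kinase C theta, into phosphatidic acid. The Sts proteins, encoded by Ubash3a and Ubash3b, bind ubiquitin and Cbl proteins, and Sts-1 is a tyrosine phosphatase that acts on Zap70.

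Replicate 1 had 3647366 counts, replicate 2 had 4305077 and replicate 3 had 2510319. All 10 T cell markers examined, among them Cd4 and the receptor constant genes, reached 1 TPM (a measure of transcript level corrected for exon length and library depth) in every library. Of the 6 Th1 markers 2 did, Stat4 and Il12rb2, and the exons of Il12rb2 overlap a gene on the other strand. Of the 5 Th1 markers without such overlap, 1 did. The Th1 regulator gene Tbx21 had 1, 3 and 0 counts, Ifng also had 1, 3 and 0, and Cxcr3 had 0 in each library. On the counted strand, whose match to the libraries was not tested, the markers thus went against the Th1 label. The label is used below as a name only. Of 2 CD8 T cell markers 1 reached 1 TPM in all libraries, Cd8b1, and Cd8a had 0, 1 and 0 counts. Of 6 B cell markers 2 reached 1 TPM in all libraries (Cd79a and Ighm), with summed levels between 123 and 401 TPM and 0 counts of Ms4a1 and Igkc. Of 6 myeloid markers 2 did, Cd68 and Csf1r, with 0 counts of Cd14 and Adgre1. The summed myeloid level was 88.4, 73.6 and 110.3 TPM in replicates 1, 2 and 3, of which Csf1r, a gene with exon overlap, had 80.9, 66.7 and 95.8 TPM. The part of these cells in the levels below was not tested. In bulk RNA, fewer cells of a type and less RNA per cell cannot be told apart. Counting was strand-specific, and 8189 genes have exons that overlap exons on the other strand. They took 63.1% of all counts in replicate 1, 53.8% in replicate 2 and 76.5% in replicate 3, so the share of the library left to all other genes was smallest in replicate 3.

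Of the 10 genes, 9 were detected in every library, with Dgka the highest and Ubash3b the lowest by mean level. In order of mean TPM they were Dgka, Dgkz, Ndfip1, Peli1, Ubash3a, Cbl, Cblb, Itch and Ubash3b, and Rnf128 had no count. At least 1 TPM in all 3 libraries was reached by 9 of the 10 genes, against 41.6% of the 21764 protein-coding genes, and at least 5 TPM by 7 of the 10, against 25.2%. The median of the 10 mean levels was 30.8 TPM, beside 0.603 TPM over all protein-coding genes and 13.7 TPM over the protein-coding genes that reached 1 TPM. Because the genes were chosen with earlier results known, these comparisons are descriptive only. All 9 detected genes had their highest TPM in replicate 2 and their lowest in replicate 3. The share of all genes with this pattern in TPM was not computed. After the scaling to effective library size described below, 8 of the 9 had replicate 3 below replicate 1 and replicate 1 below replicate 2. That order was held by 40.2% of the 10662 genes tested, so it is not particular to these regulators. The 10662 include 4418 genes with exons that overlap the other strand. The share among genes without such overlap, to which 7 of the 9 belong, was not computed.

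**Figure D1:**
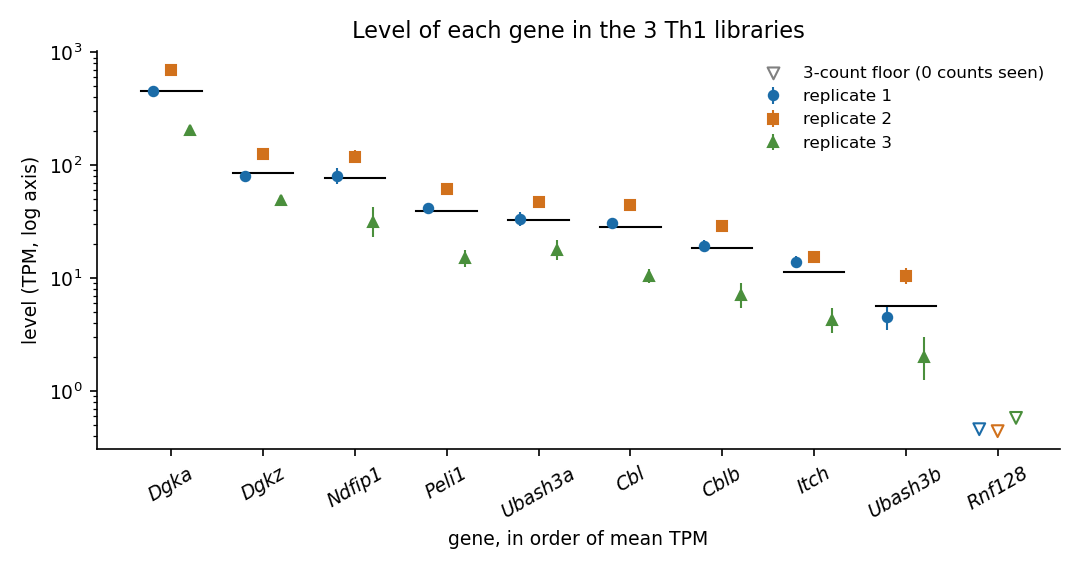
Level in TPM (log axis) of each of the 10 genes in replicates 1, 2 and 3; vertical bars are exact Poisson 95% intervals, which cover counting error only, and horizontal lines are means of the 3 libraries. Dgka is the highest gene in all libraries, and Rnf128, with 0 counts, is drawn at the level that 3 counts would give (open triangles).

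The RING-type ligases differed most among themselves, from 39.7 TPM for Peli1 to no counts for Rnf128. Cbl, which encodes the ligase c-Cbl (chromosome 9, 44142976 to 44234049, minus strand, 12345 exonic bases; coordinates are mm10 as in the deposited tables), had 716, 1075 and 195 counts in replicates 1, 2 and 3. These are 30.8, 44.4 and 10.6 TPM, a mean of 28.6 ± 17.0 (SD, n = 3). Cblb, which encodes Cbl-b, the family member best known for setting the need for costimulation (chromosome 16, 52031549 to 52208047, plus strand), had 230, 362 and 67 counts. Its levels were 19.3, 29.2 and 7.09 TPM, a mean of 18.5 ± 11.1. For both genes replicate 2 was high and replicate 3 low, and the highest level of Cblb, in replicate 2, lay below the level of Cbl in replicates 1 and 2 but above that in replicate 3.

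Within each library, Cblb was lower than Cbl by a nearly fixed ratio. The log2 ratio of Cblb to Cbl was -0.67, -0.60 and -0.57 in replicates 1, 2 and 3, a mean of -0.61 ± 0.05. From the summed counts, corrected for length, the ratio was 0.648, with an exact 95% binomial interval from 0.592 to 0.708. This interval and those of the pairs below pool the 3 libraries and cover counting error only, not the spread between libraries. The sign was the same in 3 of 3 libraries, for which an exact two-sided sign-flip test gives p = 0.25, the smallest that 3 libraries allow. That limit holds for each of the 9 fixed pairs compared. The deposited annotation gives Cblb 6323 exonic bases and the later release GENCODE M21 gives it 10475, and fragments from the added bases are not in these counts.

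Peli1 encodes Pellino-1, a ligase reported in mouse T cells to act on the NF-kB subunit c-Rel. The gene (chromosome 11, 21091291 to 21150323, plus strand, no opposite-strand gene within 5 kb) had 518, 798 and 147 counts. Its levels of 42.0, 62.2 and 15.01 TPM gave a mean of 39.7 ± 23.7, the highest of the ligase genes among the 10. Its paralogue Peli2 had 0 counts in all libraries. Set against 3 counts over the 3 libraries together, the floor used for a gene with none, Peli1 was 435-fold higher than Peli2 per base. The exact 95% binomial interval of this ratio, which covers counting error only, began at 354.

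Rnf128 encodes GRAIL, a membrane-bound ligase first described through its induction in anergic mouse T cells. The gene (X chromosome, 139563316 to 139673145, plus strand, 3464 exonic bases) had 0 counts in each of the 3 libraries. A count of 3 would correspond to 0.460, 0.442 and 0.580 TPM in replicates 1, 2 and 3, so a level below these was not detectable on the counted strand at this depth. Rnf167, which encodes another membrane-bound RING ligase of the same domain layout, had 66.6 ± 28.5 TPM. Its exons overlap a gene on the other strand. With 3 counts over the 3 libraries together standing in for Rnf128, Rnf167 was 426-fold higher per base. The exact 95% binomial interval of the ratio of Rnf128 to Rnf167, which covers counting error only, ended at 0.00289. Of the 8 relatives and regulators of Rnf128 examined, 6 reached 1 TPM in all libraries, with a median of 9.66 TPM. Usp8 (27.5 ± 10.04 TPM) and Otub1 (26.1 ± 7.29 TPM), deubiquitinase genes whose products are known to act on GRAIL, were among them. Rnf133 and Rnf150 had no counts.

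The start regions of 3 of these genes are shown because they set a detected ligase gene beside the undetected one and the lowest of the detected genes. Each sequence is the 250 bases before a start annotated by RefSeq (GRCm38.p6), written 5′ to 3′ on the gene's strand with CG dinucleotides in capitals:
Cbl, chr9:44234047-44234296, minus strand: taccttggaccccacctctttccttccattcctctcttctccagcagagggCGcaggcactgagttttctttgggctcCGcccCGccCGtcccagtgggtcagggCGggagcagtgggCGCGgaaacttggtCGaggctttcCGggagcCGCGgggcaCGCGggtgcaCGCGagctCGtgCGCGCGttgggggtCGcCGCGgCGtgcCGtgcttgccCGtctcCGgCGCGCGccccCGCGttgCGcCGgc
Rnf128, chrX:139610370-139610619, plus strand: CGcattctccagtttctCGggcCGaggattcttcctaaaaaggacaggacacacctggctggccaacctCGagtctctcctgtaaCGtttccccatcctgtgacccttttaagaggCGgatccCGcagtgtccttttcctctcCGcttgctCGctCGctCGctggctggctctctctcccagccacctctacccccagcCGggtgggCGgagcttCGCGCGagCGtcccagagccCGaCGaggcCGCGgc
Ubash3b, chr9:41158063-41158312, minus strand: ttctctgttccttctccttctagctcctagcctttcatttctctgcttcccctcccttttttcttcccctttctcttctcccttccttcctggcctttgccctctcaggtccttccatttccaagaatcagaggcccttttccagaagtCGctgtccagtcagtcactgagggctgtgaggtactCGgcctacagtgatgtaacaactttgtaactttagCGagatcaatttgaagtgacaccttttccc
The Cbl window holds 33 CG dinucleotides, the Rnf128 window 21 and the Ubash3b window 3. Over all 32851 windows of this length the median is 6, and 4.03%, 16.3% and 71.0% of windows hold at least as many as those of Cbl, Rnf128 and Ubash3b. The windows of Rnf128 and Ubash3b both precede a start inside the gene, downstream of its first annotated base, and the windows before those first bases were not used here. The other Ubash3b start in the table also has 3 CG dinucleotides in its window. Of the 10 genes, 8 had a window in the table. Those not shown hold 14 CG dinucleotides for Cblb, 12 for Peli1, 5 for Ubash3a, and 33 and 9 for Dgkz. Windows of detected genes thus lay both above and below the 21 of Rnf128, and a link between CG number and level was not tested. The highest gene, Dgka, has 4 annotated starts, whose windows hold 3, 10, 25 and 11 CG dinucleotides in order along the gene.

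Of the HECT arm, the adaptor gene was higher than the ligase gene. Itch encodes a HECT-type ligase of the Nedd4 family whose known targets in mouse T cells include JunB. The gene (chromosome 2, 155133509 to 155226855, plus strand) had 255, 295 and 62 counts, or 14.0, 15.5 and 4.27 TPM, a mean of 11.2 ± 6.09. Ndfip1 encodes a membrane adaptor that recruits and activates Itch and other Nedd4-type ligases. It (chromosome 18, 38418975 to 38464399, plus strand) had 142, 218 and 44 counts, fewer than Itch in every library. Per base the order turned round, with 81.1, 119.6 and 31.7 TPM for Ndfip1 and a mean of 77.5 ± 44.1.

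The log2 ratio of Ndfip1 to Itch was 2.53, 2.94 and 2.86, a mean of 2.78 ± 0.22, and the ratio per base was 6.89 (interval 6.06 to 7.83). In replicate 1 the ratio lay below this interval. The ratio of Ndfip1 to Itch rests on the 930 exonic bases that the deposited annotation gives Ndfip1, where GENCODE M21 gives 6331. Fragments from the added bases were not counted. Among the 9 other Nedd4-type and adaptor genes examined, 6 reached 1 TPM in all libraries with a median of 4.94 TPM. Smurf2 (22.1 ± 6.07 TPM), Smurf1 (14.4 ± 8.60) and Wwp1 (12.9 ± 1.24, with exon overlap) were the highest, so Itch was not the highest ligase of its family here, and Hecw1 had no counts. Nedd4, the ligase that names the family, had 10, 20 and 5 counts, and Itch exceeded it by a mean log2 ratio of 3.98 ± 0.58. Ndfip1 exceeded its paralogue Ndfip2, which has exon overlap, by 4.57 ± 0.62. Both ratios had the same sign in 3 of 3 libraries.

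Dgka was the highest of the 10 genes in every library. It encodes diacylglycerol kinase alpha (chromosome 10, 128720134 to 128744855, minus strand) and had 4117, 6508 and 1466 counts. The levels were 459, 698 and 206 TPM, a mean of 454 ± 246, above 99.5%, 99.6% and 98.7% of protein-coding genes in replicates 1, 2 and 3. Dgka alone made up 60.0%, 60.6% and 59.9% of the summed TPM of the 10 genes. The protein-coding genes with levels most like it over the 3 libraries were Rps3, Rps2 and Rps27a, at Euclidean distances of 0.16, 0.18 and 0.22 on the log2(TPM + 0.1) scale. Rps3, for example, had 471, 700 and 230 TPM.

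Dgkz, which encodes diacylglycerol kinase zeta (chromosome 2, 91932824 to 91975864, minus strand), had 949, 1541 and 464 counts. Its levels of 80.4, 125.4 and 49.5 TPM gave a mean of 85.1 ± 38.2, and they lay below those of Dgka in each library without overlap. The log2 ratio of Dgka to Dgkz was 2.51, 2.47 and 2.05, a mean of 2.35 ± 0.25, and the ratio per base was 5.39 (interval 5.18 to 5.61). In replicates 1 and 3 the ratio lay outside this interval. Among the other 8 diacylglycerol kinase genes, 3 reached 1 TPM in all libraries and the median was 0.735 TPM. These were Dgkd (55.8 ± 29.2 TPM), Dgkq (25.7 ± 3.54) and Dgke (4.44 ± 2.44), all with exon overlap, while Dgkb and Dgki had no counts. Of the 4 kinase genes in this group without exon overlap, 0 reached 1 TPM in all libraries.

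Both kinase genes share exonic bases with a gene on the other strand. Dgka shares 105 bases, 2.20% of its exonic length, with Pmel, which encodes a melanosome protein of pigment cells. Pmel had 5715, 6020 and 6431 counts in replicates 1, 2 and 3, more than Dgka in replicates 1 and 3 and fewer in replicate 2. Dgkz shares 222 bases, 3.54% of its exonic length, with Gm9821, which had 1111, 861 and 899 counts. The counts of neither partner followed those of its kinase gene: Pmel was highest in replicate 3, where Dgka was lowest, and Gm9821 was highest in replicate 1, where Dgkz was not. Whether fragments of a kinase locus were counted for its partner, or the reverse, was not tested. Of the other 8 genes, 0 had exon overlap, 5 had an opposite-strand gene within 5 kb and 3 had none.

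The kinase genes were set beside genes of the signals their enzymes limit. Of 18 genes of diacylglycerol signalling, 17 reached 1 TPM in all libraries, with a median of 23.7 TPM. The highest without exon overlap was Rasgrp1, the diacylglycerol-activated Ras exchange factor gene, at 82.1 ± 55.9 TPM. Rasgrp4 (149.2 ± 35.5 TPM) lay above it, with exon overlap, and Rasgrp3 had no counts. Dgkz and Rasgrp1 did not differ beyond their spread: the log2 ratio was 0.10, -0.17 and 0.72 (mean 0.22 ± 0.45), higher in 2 of 3 libraries, and the ratio per base was 1.02 (interval 0.965 to 1.07).

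The Sts genes also differed from each other. Ubash3a, which encodes the lymphoid member Sts-2 (chromosome 17, 31207873 to 31242202, plus strand), had 211, 310 and 89 counts, or 33.7, 47.5 and 17.9 TPM, a mean of 33.04 ± 14.8. Ubash3b, which encodes Sts-1 (chromosome 9, 41011098 to 41161697, minus strand), had 62, 150 and 22 counts, or 4.496, 10.5 and 2.01 TPM, a mean of 5.65 ± 4.34. The lowest level of Ubash3a lay above the highest of Ubash3b. The log2 ratio of Ubash3a to Ubash3b was 2.88, 2.17 and 3.09, a mean of 2.72 ± 0.48, and the ratio per base was 5.74 (interval 4.93 to 6.70). The ratio lay outside this interval in every library, so the spread between libraries is wider than the interval. Ubash3b was the least precise of the detected genes, with an exact Poisson 95% interval of 1.26 to 3.04 TPM in replicate 3. The deposited annotation gives Ubash3a 3328 exonic bases, GENCODE M21 gives 11239, and the added bases were not counted.

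**Figure D2:**
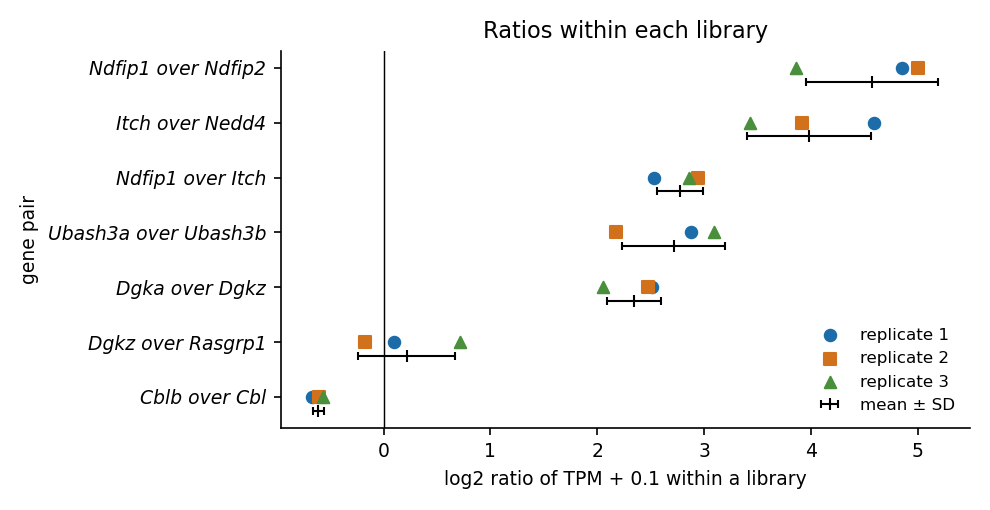
Log2 ratio of TPM + 0.1 of the first gene to the second within each library for the 7 fixed pairs in which both genes had counts, with mean ± SD below (n = 3). Cblb over Cbl is negative in all libraries and the narrowest, Dgkz over Rasgrp1 spans 0, and the other 5 pairs are positive in all libraries.

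Along the order of levels, 5 of the 8 steps between neighbours were larger than their spread. These were Dgka above Dgkz, Ndfip1 above Peli1 (mean log2 ratio 0.99 ± 0.07, but -1.82 without length correction), Cbl above Cblb, Cblb above Itch (0.70 ± 0.22) and Itch above Ubash3b (1.08 ± 0.52). Dgkz and Ndfip1 changed places between libraries (0.23 ± 0.36), as did Peli1 and Ubash3a (0.15 ± 0.35). Ubash3a was above Cbl in all 3 libraries, but the mean of 0.33 ± 0.37 was within its SD, and it was -1.56 without length correction. Of all 36 pairs among the 9 detected genes, 34 had the same order in all 3 libraries. The order was itself taken from mean TPM in these libraries, so neighbouring steps lean positive by construction. These counts describe the order and do not test it.

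The next comparison asked whether the genes varied between libraries by more than counting error. After scaling to effective library size (TMM in edgeR), a Poisson chi-square test called 8 of the 9 tested genes at an adjusted p under 0.05, against 67.1% of the 10662 genes tested. Rnf128 had too few counts to be tested. Of the 9 tested genes, 8 were called with replicate 3 lowest, against 3436 (32.2%) of the 10662 tested. Among called genes only, replicate 3 was lowest in 8 of 8, against 3436 of 7152 over all genes. For Dgkz, 1 of these 8, replicates 1 and 3 were nearly equal, at 244 and 241 CPM after TMM scaling. Without replicate 2, Dgkz was not called (adjusted p = 0.885, Poisson chi-square test). Cbl had 184, 205 and 101 CPM after this scaling in replicates 1, 2 and 3 (adjusted p = 1.95e-18, edgeR scaling), and Dgka had 1056, 1240 and 761 (adjusted p = 1.42e-65, edgeR scaling). Ubash3a had 54.1, 59.1 and 46.2 (adjusted p = 0.148, edgeR scaling) and was the gene not called.

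These calls compare the 3 libraries and depend on what is counted as error. When the test allowed the common dispersion that edgeR estimated over the same libraries (0.136), which itself holds these differences, 0 of the 9 genes were called, against 1.31% of all genes, and 0 of the 9 had an unadjusted p under 0.05. Without replicate 3, 3 of the 9 were called (Dgka, Dgkz and Ubash3b), against 32.5% of all genes; without replicate 2, 6 of 9, against 49.7%; and without replicate 1, 8 of 9, against 65.0%. DESeq2 size factors gave 7 of 9 (without Dgkz and Ubash3a), against 58.1% of all genes, and scaling to total counts gave 9 of 9, against 82.5%. With no filter on low counts, 8 of 9 were called, against 42.6%. Among genes without exon overlap, 6 of 7 were called, against 59.1%, and 5 of 7, against 42.0%, when these genes also set the scaling.

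The direction between libraries differed by strand class. The log2 ratio of replicate 3 to replicate 2 had a median of -0.85 over the 9 genes, from -1.29 for Ubash3b to -0.29 for Dgkz. Over all tested genes it was -0.20, over those with no opposite-strand gene within 5 kb -0.55, over those with exon overlap 0.90, and it was 1.540 for Pmel and 1.505 for Gm9821. It was also positive for the markers Csf1r (1.57), Cd68 (2.20) and Cd79a (1.08), and negative for Ighm (-1.20) and for all 10 T cell markers (median -0.71). The part of other cell types in this ratio was not tested. The scaling matters here: when TMM was computed over genes without exon overlap only, an alternative added after the data were seen, the median over all tested genes moved to 0.11 and that over the 9 genes to -0.54. Under this scaling the ratio was 0.04 for Dgkz, a change of sign, and -0.03 for Ubash3a, while the other 7 lay between -0.99 and -0.38. It called 7 of the 9 genes, without Ndfip1 and Ubash3a, against 56.1% of all genes.

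**Figure D3:**
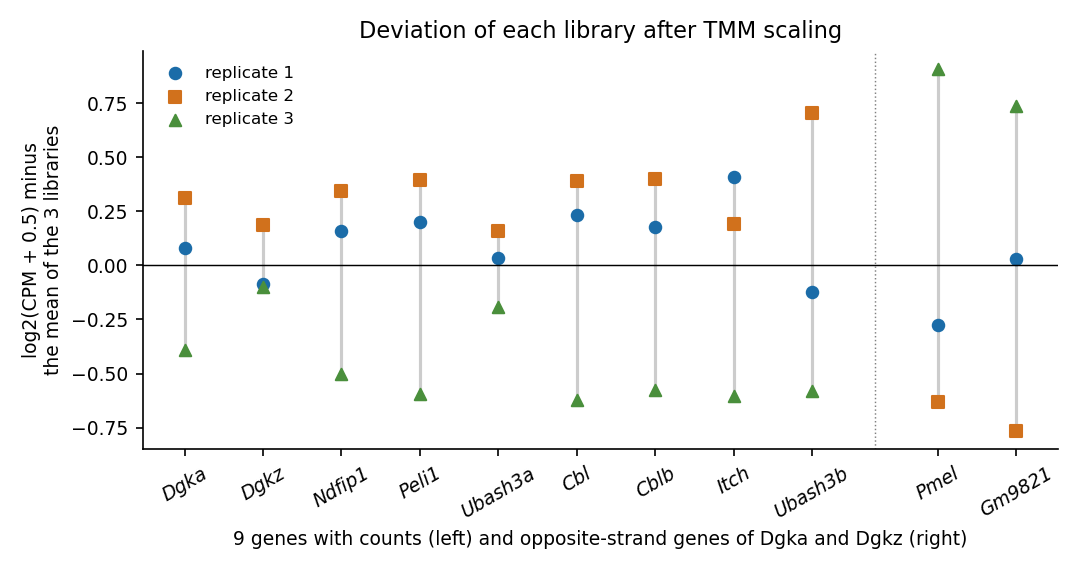
Deviation of each library's log2(CPM + 0.5), after TMM scaling over all genes, from the mean of the 3 libraries, for the 9 detected genes (left of the dotted line) and the genes that share exonic bases with Dgka and Dgkz on the other strand (right). Replicate 3 is lowest for all 9 genes and highest for Pmel and Gm9821.

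Set against T cell transcripts, the median log2 ratio of replicate 3 to replicate 2 over the 9 genes was -0.16. The summed counts of the 10 T cell markers were 10635, 17334 and 3904 in replicates 1, 2 and 3, and the choice of this scaling also came after seeing the data. Dgka had 387, 375 and 376 counts per 1000 T cell marker counts (adjusted p = 0.362, Poisson chi-square test with Benjamini-Hochberg adjustment). Cblb had 21.6, 20.9 and 17.2 (adjusted p = 0.321, same test) and Ndfip1 13.4, 12.6 and 11.3 (adjusted p = 0.678, same test). Of the 9 genes, 5 were called, against 55.6% of all tested genes. Dgkz was called with replicate 3 the highest, at 89.2, 88.9 and 118.9 per 1000. Itch was called with replicate 1 the highest, at 24.0, 17.0 and 15.9, and Cbl (67.3, 62.0 and 49.9), Peli1 (48.7, 46.0 and 37.7) and Ubash3b (5.83, 8.65 and 5.64) were the other three.

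The base of the TPM also sets how wide the spread looks. Over all annotated genes the coefficient of variation of the 9 genes lay between 44.9% and 76.7%. When TPM were computed over protein-coding genes without exon overlap, it lay between 2.49% (Ubash3a) and 37.3% (Ubash3b). On that base Dgka stood at 2091 ± 291, Dgkz at 408 ± 21.1, Ndfip1 at 352 ± 70.3, Cbl at 128 ± 32.9, Cblb at 83.3 ± 19.8 and Ubash3a at 157 ± 3.92 TPM (n = 3). Ratios between genes in a library do not depend on this choice.

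Genes that act beside these regulators were described from lists, each by its count at 1 TPM or more in all libraries, for which the share of protein-coding genes is 41.6%. The lists too were chosen with earlier results of these data known, so their counts beside this share are descriptive only. Of 13 Cbl partners and targets, 11 reached it, with a median of 46.9 TPM, led by the kinase genes Lck (331 ± 169 TPM), Fyn (81.2 ± 40.6) and Zap70 (79.5 ± 33.8). Syk, the relative of Zap70 that B and myeloid cells use, had no counts. Of 10 Pellino relatives and NF-kB genes, 8 reached it, with a median of 12.9 TPM, led by Irak4 (59.1 ± 9.22, with exon overlap), Rela (35.2 ± 13.8) and Irak1 (31.8 ± 20.1).

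Of 9 genes associated with anergy, 6 reached 1 TPM in all libraries, with a median of 10.8 TPM. Ikzf1, the Ikaros gene (164 ± 85.7 TPM), Dtx1, which encodes the ligase Deltex1 (86.3 ± 22.4), and Nfatc1 (17.2 ± 8.38) were the highest. Egr2, whose product induces anergy genes in mouse T cells, was the lowest at 2.12 ± 1.67 TPM, with 12, 26 and 3 counts. Of 19 other brakes on the receptor, 18 reached 1 TPM, with a median of 27.1 TPM. They were led by the adaptor gene Sla2 (302 ± 66.3, with exon overlap), Cd5 (209 ± 113) and the phosphatase gene Ptpn6 (149.9 ± 49.5, with exon overlap), and Cish was lowest (3.12 ± 1.99, with exon overlap).

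All 12 ubiquitin, E1 and E2 genes reached 1 TPM, with a median of 12.01 TPM. The ubiquitin fusion gene Rps27a (480 ± 244 TPM, with exon overlap), Ubb (165 ± 72.9) and the E1 gene Uba1 (48.2 ± 26.0) were highest and Ube2v1 lowest (1.36 ± 0.283, with exon overlap). Over the 106 genes of the 9 lists, counted once each, 87 reached 1 TPM in all libraries and the median was 15.04 TPM.

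**Figure D4:**
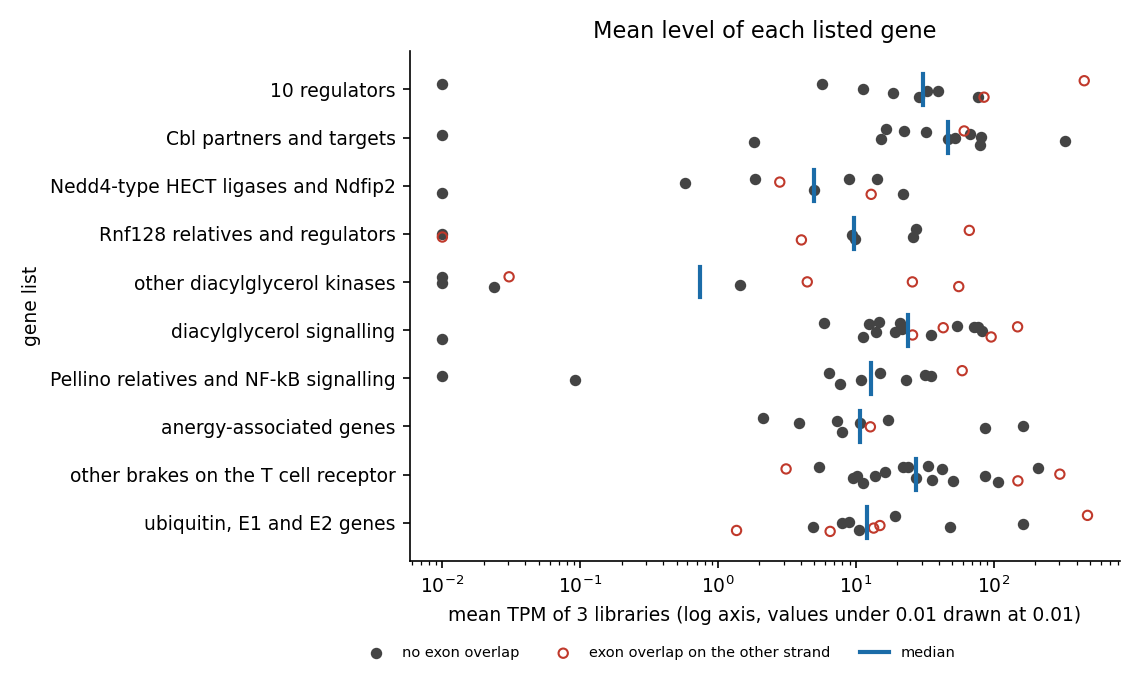
Mean TPM of the 3 libraries (log axis) of each gene of the 10 regulators and of the 9 lists; open red circles are genes whose exons overlap a gene on the other strand, and blue bars are medians. Among the 10 regulators the open circles are Dgka and Dgkz, and the point at 0.01 is Rnf128.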

How the data were processed

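Gene tables of the 3 Th1 libraries were used. The authors deposited raw counts per gene from featureCounts 1.4.6-p4 with GENCODE M13, run on read pairs of which both ends had mapped and with strand option 1, per the file headers. Labels name the mm10 build. Neither aligner version nor library kit was found in these sources, and no multi-mapping option appears in the featureCounts call. Whether strand option 1 matches the libraries was not tested. Symbols came from GENCODE M21 by gene identifier (50376 of 50600 named). TPM were computed from the deposited counts and exon lengths (pseudocount 0.1 for log2 ratios). Variation between libraries was tested with a chi-square test of Poisson counts (df = 2) on TMM effective library sizes (edgeR 4.0.16), with Benjamini-Hochberg adjustment over 10662 genes kept by filterByExpr; 1 group gives no contrast for a quasi-likelihood test. DESeq2 1.42.0 size factors were an alternative. The step was tested on simulated Poisson counts, where 45% of 1.5-fold and 98% of 3-fold changes were called. Those counts hold no spread beyond counting error, so they do not show how the test performs on these libraries. Intervals are exact (95%) and cover counting error only, since PCR duplicates were not told apart. A floor of 3 counts stood in for 0. Genes and lists were chosen with earlier results of these data known. The rule for named genes was all 10 regulators, genes of the fixed pairs, the 3 highest and the lowest of each list, opposite-strand partners, and the 3 genes nearest to Dgka. A gene that this rule names is not reported here.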

Additional observations from a re-analysis of the deposited data

How the results depend on the processing

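No paired analysis was possible because the series holds 1 group. The 9 detected regulators reached 1 TPM in all libraries under every TPM base and with each replicate left out. These checks could not lower that number, since a smaller base only raises TPM and fewer libraries set fewer conditions. The number of neighbouring steps that held their order in all libraries was 6 of 8, between 6 and 7 with a replicate left out, and 5 on CPM, where Ndfip1 over Peli1 reversed to a mean log2 ratio of -1.82 and Ubash3a over Cbl to -1.56. The fixed pairs with the first gene higher numbered 6, and 6 to 7 with a replicate left out. For both the steps and the pairs, leaving out a replicate could only keep or raise the number, since every library used had to have the same sign. Genes that varied between libraries numbered 7152, and with a replicate left out between 3817 and 6819; they numbered 3688 among genes without exon overlap, 2625 when these genes also set the scaling, and 140 with the common dispersion. Of the 9 regulators tested 8 varied, with a replicate left out 3 to 8, and 5 of 7 when genes without exon overlap set both test and scaling, 5 with T cell marker scaling and 0 with the common dispersion. The cause was not tested. DESeq2 size factors gave 7 of 9, without Dgkz and Ubash3a, and total counts 9 of 9. At this depth, levels of Rnf128 below its floor of 3 counts could not be seen.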
